A study of Mus musculus with 6 samples.

Results

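The members of the imprinted Dlk1-Dio3 microRNA (miRNA) cluster are described here in 3 populations of mouse tissue macrophage. They were chosen by name, from a fixed list of miRNA numbers, with every letter and arm of each number: 111 of the 1247 mouse miRNAs on the array carried such a name. By the positions that RefSeq gives in build GRCm38.p6, 108 of them lie between the genes Dlk1 and Dio3 on chromosome 12. The other 3 do not: both arms of miR-345 are encoded on the same chromosome before Dlk1, and miR-496b is encoded on chromosome 19. The label is thus met by position for 108 members. Where its values are given miR-345 is named as lying outside, but counts, shares and medians of members include it and miR-496b unless stated.

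The arrays held RNA of brain microglia, of colon macrophages and of liver macrophages (Kupffer cells), 2 arrays per group and 6 in all. All cells came from untreated wild-type male C57BL6/J mice, 6 weeks old by the sample labels and 6 to 8 weeks by the design text. Each array stood for a separate pool of 4 to 6 animals, sorted within 5 h of the start of isolation by surface proteins (CD45 at an intermediate level with CD11b and F4/80 and without Ly6C and Ly6G for microglia; CD45, CD11b, CD11c and CD64 without Ly6C for colon; CD45, CD11b, F4/80, CD64 and MHCII for liver). The labels do not state whether animals, cages or days were shared across groups, and 2 pools per group limit the precision of every value.

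At this locus the father's chromosome expresses the protein genes Dlk1, a membrane-bound relative of Notch ligands, Rtl1, derived from a retrotransposon, and Dio3, an enzyme that inactivates thyroid hormone. The mother's chromosome expresses a row of noncoding RNAs, Meg3, Rian and Mirg among them, and the miRNAs are processed from these maternal transcripts. In adult mice the miRNAs are best known from the brain, where neurons express many of them, and in the blood system from stem cells. A miRNA hairpin can release a 5p and a 3p arm, and bases 2 to 8 of an arm, the seed, select its target mRNAs.

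The sequences below are those on which the results turn: 5 of the 6 members detected on every array, and 3 of the cluster's best known miRNAs, which no array detected. They are the mature sequences in RefSeq's GRCm38.p6 table, written 5′ to 3′ with the seed in capitals.
miR-494-3p: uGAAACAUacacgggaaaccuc
miR-370-3p: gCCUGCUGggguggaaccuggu
miR-134-5p: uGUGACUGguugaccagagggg
miR-345-5p: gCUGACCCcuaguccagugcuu
miR-3072-5p: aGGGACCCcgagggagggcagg
miR-127-3p: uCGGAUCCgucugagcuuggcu
miR-434-3p: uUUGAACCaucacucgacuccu
miR-410-3p: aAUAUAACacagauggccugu

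All 8 are encoded on the plus strand of chromosome 12, in the gene order given by their mature positions: miR-345-5p at chr12:108836989-108837010, miR-127-3p at chr12:109592888-109592909, miR-434-3p at chr12:109594565-109594586, miR-370-3p at chr12:109618305-109618326, miR-494-3p at chr12:109715367-109715388, miR-134-5p at chr12:109734145-109734166, miR-410-3p at chr12:109743764-109743784 and miR-3072-5p at chr12:109747893-109747914. miR-127-3p and miR-434-3p lie within the span of Rtl1, opposite its coding strand, and are known to direct cleavage of its mRNA. miR-370-3p lies within the span of Rian. The remaining cluster members shown come from the long stretch that begins after Rian and ends with Mirg. A sequence was matched for 107 of the 111 members, 104 by name and 3 by gene symbol and arm. No other miRNA of the array with a sequence matched by name shared a seed with any of the 5 detected arms shown.

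A pair of near-identical arms is shown with the bases at which they differ in capitals, because arms this alike may be hard for probes to tell apart.
miR-3070a-3p: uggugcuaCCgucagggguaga
miR-3070b-3p: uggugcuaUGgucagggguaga
Counted from the 5′ end, miR-3070b-3p differs from miR-3070a-3p by C9U and C10G, while the other 20 of 22 bases, the seed included, are the same. The genes of the pair lie 560 bases apart within the span of Rtl1, at mature positions chr12:109587999-109588020 and chr12:109588648-109588669. RefSeq lists these arms as miR-3070-3p and miR-3070-2-3p. The probe sequences were not used here, so whether each probe reads only its own arm was not tested.

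The arrays detected 300 to 403 of the 1247 miRNAs (24.1% to 32.3%), and microglia gave the lowest counts, 300 and 330. Levels below are log2 scaled signals: signals were divided, array by array, by the 75th percentile of the 248 miRNAs that all arrays detected, rescaled to the mean of these percentiles, and set to at least 3.12 scaled units (1.64 on the log2 scale). Of 5 blood cell miRNAs 4 were detected on each array, with miR-142-3p at 11.24 to 12.31. miR-223-3p, of the same list, was at 8.27 and 8.47 in microglia, 12.67 and 12.83 in colon and 11.45 and 12.40 in liver macrophages. Markers of other cell types were also present. Of 7 epithelial miRNAs, 7 were detected on each colon array, 6 on microglia replicate 1 (summed scaled signal 645), 2 on microglia replicate 2 (55.2) and 2 on each liver array. Microglia replicate 1 also stood apart in the erythrocyte miRNA miR-451a, at 9.46 against 6.93 on replicate 2. Results that use a microglia mean are therefore also given without replicate 1 where the call or the direction moves.

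Most of the cluster was not detected in any of the 3 populations. Within the interval, 13 of 108 members were detected on at least 1 array. Of the 111 members, 96 (86.5%) were detected on no array, 9 on some and 6 on all, whereas 58.9% of the 1136 other miRNAs were detected on no array and 21.3% on all. Per array, microglia detected 7 and 11 members, colon macrophages 12 and 8, and liver macrophages 11 and 12. That is 6.31% to 10.8% of members against 25.8% to 34.4% of other miRNAs. The ranges of the 3 populations overlap, so the number of members detected does not separate them. In bulk RNA, fewer expressing cells and less RNA per cell cannot be told apart. The map of detection along the cluster shows how thinly the detected members are spread.

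**Figure D1:**
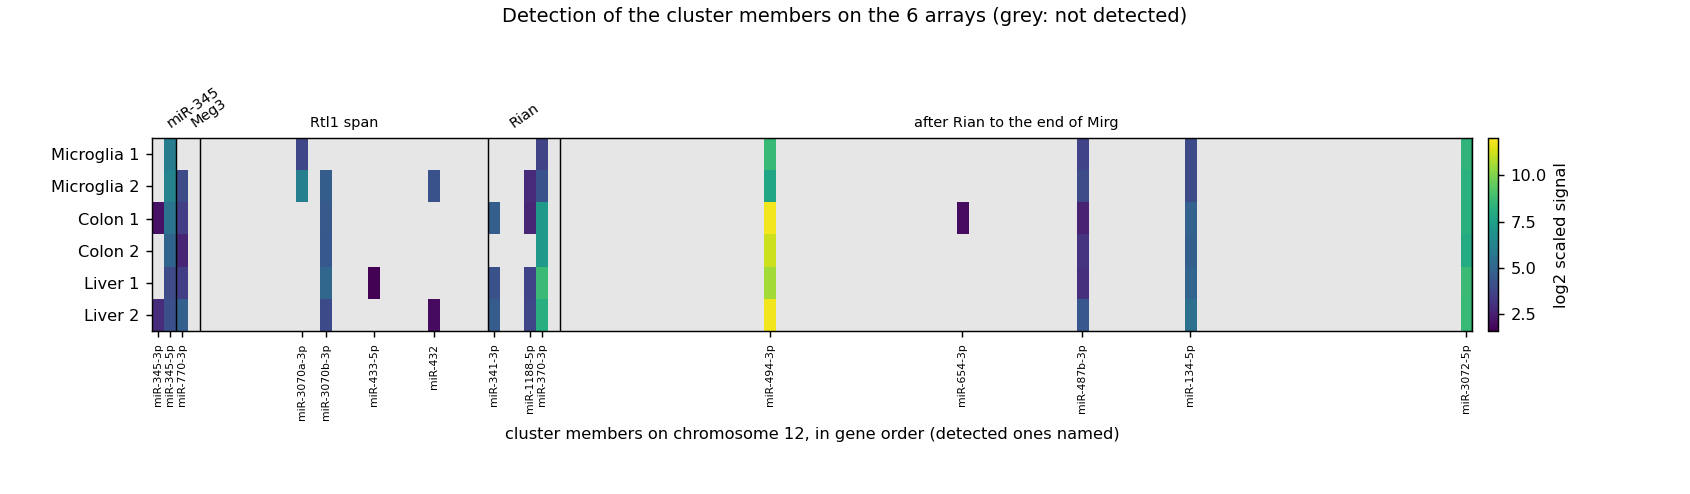
Detection of the 110 members encoded on chromosome 12, in gene order from left to right, on the 6 arrays from top to bottom. Colour gives the log2 scaled signal and grey marks a member not detected; 15 columns carry any colour, and black lines separate miR-345, the Meg3, Rtl1 and Rian spans and the stretch from Rian to the end of Mirg.

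Along the locus, detection on at least 1 array was uneven. In the Meg3 span 1 of 2 members was detected on at least 1 array, in the Rtl1 span 4 of 24, in the Rian span 3 of 6, and in the stretch after Rian to the end of Mirg, which holds 39 genes, 5 of 76 (6.58%). Both arms of miR-345, outside the interval, were detected on at least 1 array. Detection on all 6 arrays had another order: 0 members in the Meg3 span, 0 in the Rtl1 span, 1 in the Rian span and 4 in the last stretch. The miR-379 to miR-410 row within that last stretch is the part whose transcription neurons raise with activity in rats. Within this row miR-494-3p, miR-487b-3p and miR-134-5p were detected on all 6 arrays and miR-654-3p on 1. The namesakes of the row, miR-379-5p, miR-379-3p, miR-410-3p and miR-410-5p, were not detected on any array. Likewise undetected were both arms of miR-127, miR-434, miR-431 and miR-136 from the Rtl1 span, and all arms of miR-376a, miR-376b and miR-376c.

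Neighbours were taken among the genes of the name list, and miR-345 and miR-770, 726623 bases apart, count as neighbours of each other. Of 14 genes with a detected arm, 7 had no detected arm in the neighbour on either side and the other 7 had at least 1. miR-494 is an example of the former: miR-494-3p was detected on all arrays, yet miR-329, 1740 bases before it, and miR-679, 174 bases after it, gave no detected arm. miR-134 lies 292 bases from miR-382 and 522 from miR-668, and neither was detected. Around miR-370 the genes miR-1188 and miR-341 were detected, the nearest of them 6316 bases away.

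The partner arms were mostly undetected as well. Of 53 member hairpins with both arms on the array, 11 had 1 arm detected and only miR-345 had both, which is 8.33% of the 12 with any. Among 369 other hairpins it was 29.4% of 235. As miR-345 lies outside the interval, no hairpin within it had both arms detected. miR-494-5p, miR-370-5p, miR-134-3p and miR-3072-3p were not detected on any array. Dim arms are more easily missed, so the shares are given as a description.

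Detected members were richer in G and C than undetected members. The mature sequences of detected members held a median of 59.1% G and C (45.5% to 77.3%, 14 members with a sequence), against 47.8% (23.8% to 76.2%) for 93 undetected members. Among other miRNAs with a sequence matched by name the medians were 52.2% for 362 detected and 47.8% for 551 undetected ones. None of the 18 members under 40% was detected, and 3 of 32 from 40% to under 50%, 6 of 37 from 50% to under 60% and 5 of 20 at 60% or more were. Other miRNAs of the array with a sequence matched by name were detected in 27.8% of 158 under 40%, 39.3% of 272 from 40%, 36.3% of 300 from 50% and 55.7% of 183 at 60% or more. Among them the share was lowest and highest in the end classes but did not go up in each step. The part of base composition in which members were detected was not tested. miR-494-3p, at 45.5%, lies at the low end of the detected members.

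**Figure D2:**
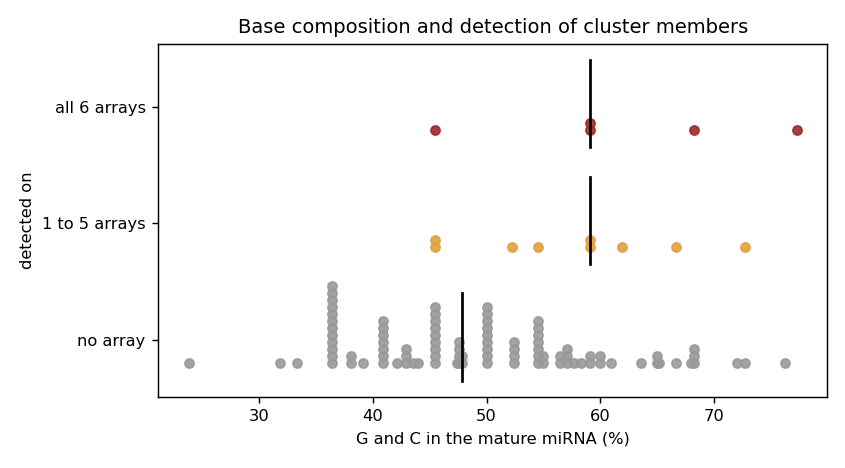
Percentage of G and C in the mature sequence of each member (horizontal axis), by the number of arrays on which it was detected; each point is 1 member and the vertical bars are medians. The medians are 59.1% for members on all 6 arrays and for those on 1 to 5 arrays, and 47.8% for members on no array.

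Against colon macrophages, microglia had less miR-370-3p and miR-494-3p, and miR-3070a-3p was detected in microglia alone. Of the 9 members that were detected on both arrays of at least 1 group and so could be tested, 2 were lower in microglia, 1 was higher and 6 did not pass limma's test at an adjusted p of 0.05. Over all 379 miRNAs tested 46.2% passed, 28.5% lower and 17.7% higher, so the share among members, 3 of 9, was not above the background. miR-3070a-3p entered the test through microglia alone, and miR-3070b-3p and miR-770-3p through colon macrophages alone. Colon macrophages took the floor value for miR-3070a-3p, so the direction of its change was fixed by the way it entered. The members' median log2 change was -0.25, also with the undetected group of miR-3070a-3p at its bound, and that of all tested miRNAs -0.43. The members' median is the change of miR-770-3p, which entered through colon macrophages alone, so it depends on the detection filter. Among miRNAs detected on all arrays the medians were -0.28 for members and -0.04 for all. Over 5 other scalings the median of all tested miRNAs ran from -1.02 to 0.02, and 17.3% to 62.9% of called miRNAs were higher (38.3% here). Without colon replicate 1 only miR-370-3p still passed.

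Against liver macrophages, microglia had less miR-370-3p, miR-494-3p and miR-134-5p and more miR-345-5p, and miR-3070a-3p was detected in microglia alone. Here 11 members could be tested, of which 3 were lower, 2 higher and 6 did not pass. The background was 52.9% of 382 miRNAs, 31.7% lower and 21.2% higher, and the members' share, 5 of 11, was again not above it. miR-3070a-3p entered through microglia alone, and miR-341-3p, miR-1188-5p, miR-3070b-3p and miR-770-3p through liver macrophages alone. The directions of miR-3070a-3p and miR-341-3p, each undetected in the other group, were fixed by the way they entered. The members' median log2 change was -1.33, also with 2 undetected groups at their bounds, against -0.60 for all tested miRNAs. This median is the change of miR-770-3p, which entered through liver macrophages alone, so it depends on the detection filter. Among miRNAs detected on all arrays the medians were -0.77 for members and 0.03 for all. Over the same scalings the median of all tested miRNAs ran from -1.15 to -0.12, with 17.1% to 55.0% of called miRNAs higher (40.1% here). Without liver replicate 2, miR-370-3p, miR-134-5p and miR-345-5p still passed and the other 2 did not. The microglia arrays enter both comparisons, so the results of the pair are not independent.

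**Figure D3:**
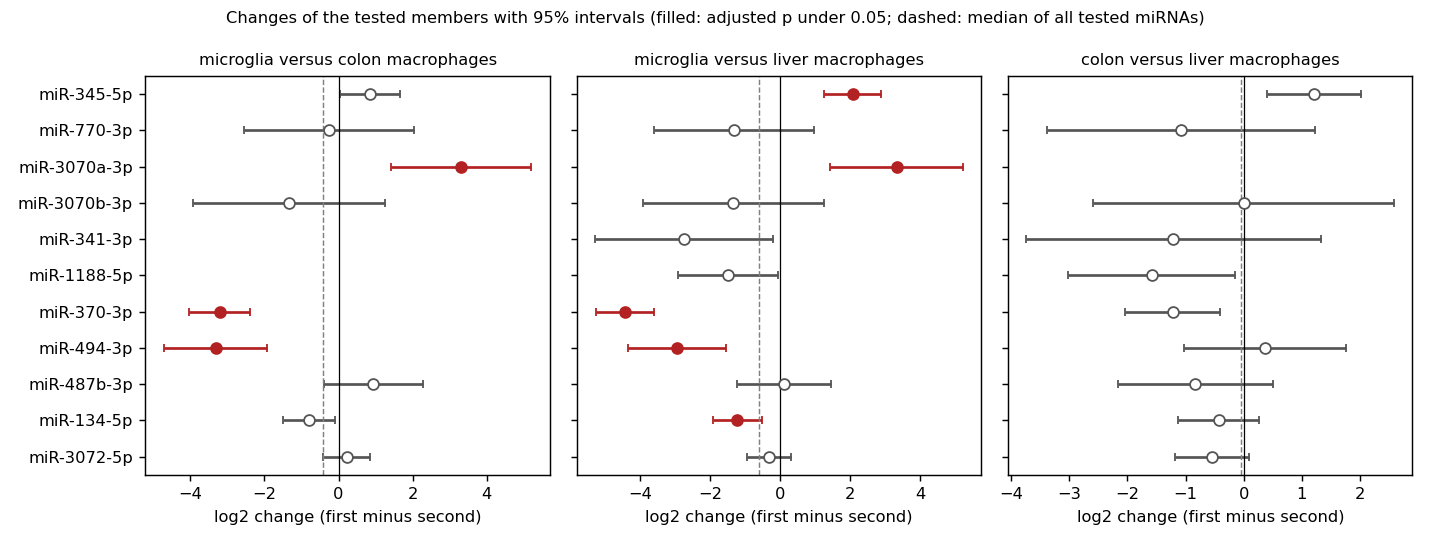
Log2 change of each tested member with its 95% interval from limma (points and bars), for the 3 comparisons, first group minus second. Filled red points passed the test, open points did not, and dashed lines mark the median of all tested miRNAs: -0.43, -0.60 and -0.04.

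miR-370-3p, reported in human liver cells to act on the fatty acid transport enzyme CPT1A, had the smallest adjusted p of the members in both comparisons with microglia. Microglia gave levels of 3.74 and 4.24, colon macrophages 7.21 and 7.19, and liver macrophages 8.68 and 8.17. Both microglia arrays lie far below the other 4, and the 3 groups do not overlap. The means were 3.99 ± 0.36, 7.20 ± 0.02 and 8.42 ± 0.36 (SD, n = 2 each). In microglia it was 9.27-fold lower than in colon macrophages (log2 change -3.21, SE 0.32, adjusted p = 0.00226) and 21.6-fold lower than in Kupffer cells (log2 change -4.43 with SE 0.32, adjusted p = 0.000933, limma). Both calls held with each array left out in turn, with changes of -3.43 to -2.95 and -4.69 to -4.15. Over 5 other scalings they were -3.81 to -2.51 and -5.15 to -3.79, all past the threshold. Colon and liver macrophages differed by -1.22 (95% interval -2.04 to -0.40, adjusted p = 0.0771).

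miR-494-3p followed a similar order between microglia and the rest. Microglia stood at 8.63 and 7.77, colon macrophages at 11.81 and 11.22, and liver macrophages at 10.54 and 11.76. The microglia arrays are again the lowest, while colon and liver arrays overlap. Against colon macrophages microglia were 9.96-fold lower (8.20 ± 0.61 against 11.52 ± 0.42, log2 change -3.32, SE 0.55, adjusted p = 0.0104). Against liver macrophages they were 7.73-fold lower (11.15 ± 0.86 in the latter; log2 change -2.95, SE 0.55, adjusted p = 0.00995). Replicate spread was larger than for miR-370-3p and the calls were less firm. The first did not pass without microglia replicate 2 (adjusted p = 0.0792), colon replicate 1 (0.115) or colon replicate 2 (0.0814). The second did not pass without microglia replicate 2 (adjusted p = 0.0829), colon replicate 1 (0.0506), colon replicate 2 (0.0556) or liver replicate 2 (0.0512, log2 change -2.34). Both kept their direction in each of these fits and passed under 5 other scalings. The difference between colon and liver macrophages was 0.37 (95% interval -1.03 to 1.77), which leaves room for a change in either direction.

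miR-134-5p limits the growth of dendritic spines in rat neurons by holding back the kinase Limk1. Microglia gave 3.97 and 4.03, colon macrophages 4.86 and 4.73, and liver macrophages 5.01 and 5.44, with no overlap between the 3 groups. Microglia were 2.34-fold lower than liver macrophages (log2 change -1.23, SE 0.27, adjusted p = 0.0172). The call was lost without microglia replicate 2 (adjusted p = 0.0558). Against colon macrophages the change was -0.79 (95% interval -1.49 to -0.10) and did not pass (adjusted p = 0.0624). It passed there without liver replicate 1 or 2 (adjusted p = 0.00866 and 0.0115), with a floor 4 times higher, in a fit of the 4 arrays compared, and when arrays were scaled by their spike-in controls. The size in the liver comparison depends on the scaling, from -1.94 to -0.70 over 5 others, each past the threshold.

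miR-345-5p, from the gene outside the interval, ran in the opposite order. Microglia gave 5.99 and 6.25, colon macrophages 5.58 and 4.96, and liver macrophages 3.99 and 4.12, highest on both microglia arrays and lowest on both liver arrays, with no overlap. The difference between microglia and liver macrophages was 4.19-fold (6.12 ± 0.19 against 4.05 ± 0.09, log2 change 2.07, SE 0.32, adjusted p = 0.00585) and passed with each array left out. Against colon macrophages the change of 0.85 (95% interval 0.04 to 1.66) did not pass (adjusted p = 0.0725), but it passed under median scaling, quantile normalization and in the authors' value table. The change of 1.21 between colon and liver macrophages (adjusted p = 0.0764) passed under the same 3. Its partner miR-345-3p was detected on colon replicate 1 (2.10) and liver replicate 2 (2.93), and not in microglia.

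miR-3070a-3p was detected in microglia and on none of the 4 other arrays. The microglia levels lay far apart, at 3.83 and 6.10, with signals 4.97 and 11.3 times their error. Microglia were at least 9.1-fold higher than colon macrophages (adjusted p = 0.023) and at least 9.99-fold higher than liver macrophages (adjusted p = 0.0172). The first bound sets the microglia mean against the mean, over the colon arrays, of the lowest signal detected on each. On the liver arrays those lowest signals, 1.44 and 1.47, lie below the common floor of 1.64, so the second bound uses the floor. Both undetected groups take the floor value on each array, so that their SD is 0 and the pooled spread is lowered: the microglia SD was 1.61 but the SE of the change 0.74. The calls did not pass without colon replicate 1 or 2 or liver replicate 1 or 2 (adjusted p from 0.085 to 0.175 against colon and 0.08 to 0.137 against liver macrophages), or with a floor 4 times higher. Without microglia replicate 1 the fitted change was 4.56 in place of 3.32, and without replicate 2 it was 2.46.

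miR-3070b-3p, which differs from it at 2 bases, had another pattern. Microglia replicate 1 did not detect it and replicate 2 gave 4.66, beside 4.50 and 4.47 for colon macrophages and 5.02 and 3.95 for liver macrophages. Microglia replicate 2 lies within the range of the other 2 groups, and no comparison passed. The changes were -1.33 against colon macrophages (95% interval -3.93 to 1.26) and -1.34 against liver macrophages (-3.93 to 1.26). Without microglia replicate 1 they were 0.18 and 0.17, and without replicate 2 they were -3.09 and -3.02, the latter past the threshold (adjusted p = 0.0475). miR-3070a-5p, the other arm, was not detected on any array. The difference between the 2 probes in microglia replicate 1, 1 detected and the other not, was in the opposite sense to the 4 colon and liver arrays.

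**Figure D4:**
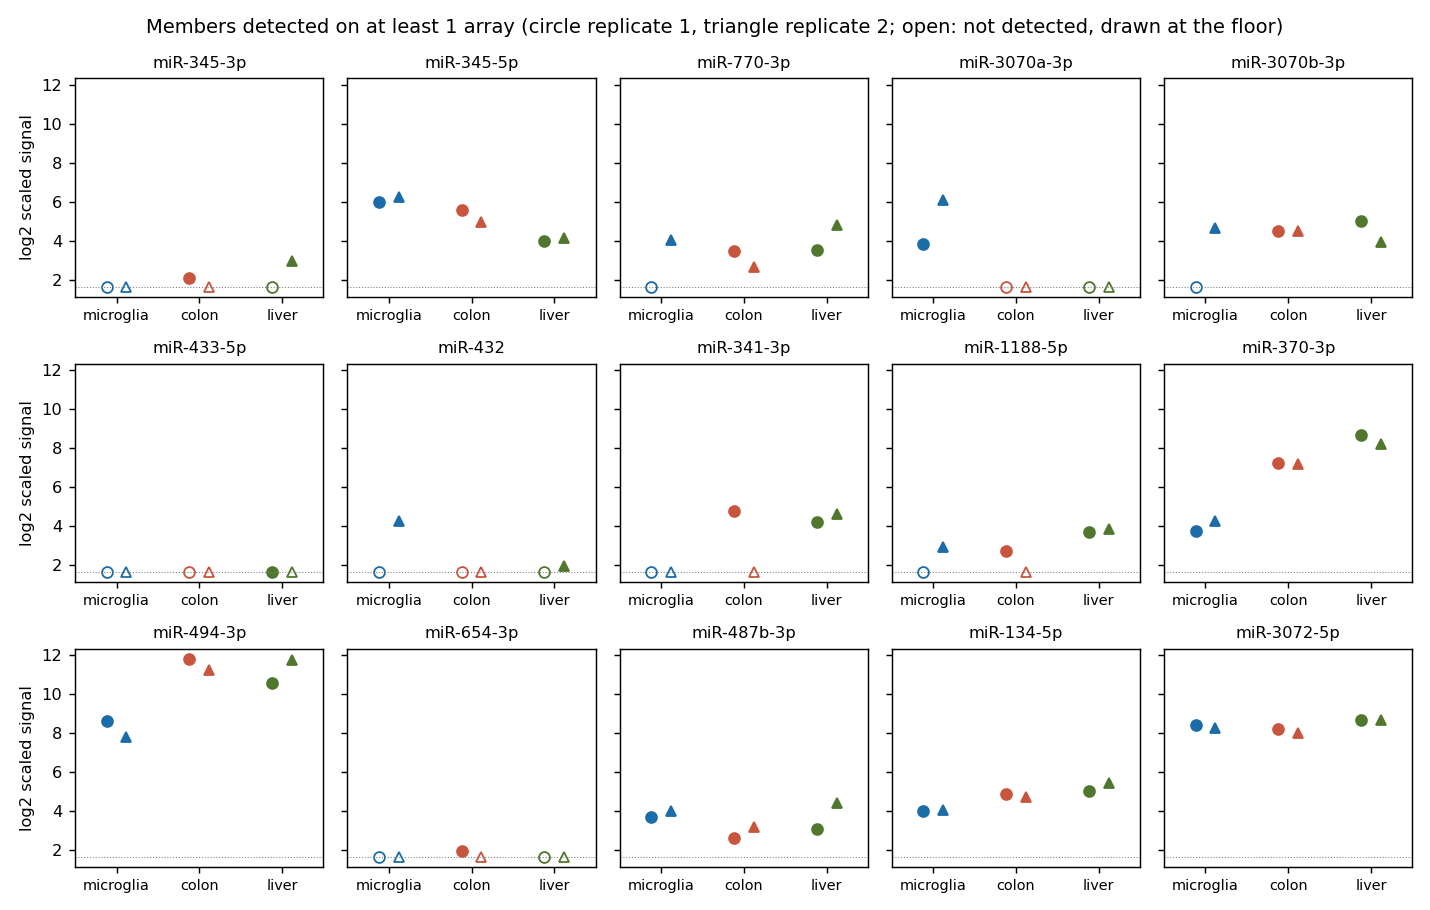
Log2 scaled signal of the 15 members detected on at least 1 array, 1 panel each in gene order, for microglia, colon and liver macrophages. Circles are replicate 1, triangles replicate 2, open symbols stand for not detected and are drawn at the floor of 1.64 (dotted line); the microglia symbols of miR-370-3p and miR-494-3p lie below those of the other groups.

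The remaining 2 members detected on every array showed no change that passed. miR-3072-5p, from the gene at the end of the Mirg stretch, gave 8.42 and 8.25 for microglia, 8.20 and 8.01 for colon macrophages and 8.67 and 8.64 for liver macrophages. The groups lie close together and do not overlap. Its change was 0.23 against colon macrophages (95% interval -0.41 to 0.86) and -0.32 against liver macrophages (-0.95 to 0.31), and between colon and liver macrophages -0.55 (-1.18 to 0.09). It passed against liver macrophages when arrays were scaled by their spike-in controls (-1.04, adjusted p = 0.0339). miR-487b-3p was at 3.69 and 4.01, 2.63 and 3.19, and 3.06 and 4.43 in the same order of groups, with signals 3.23 to 7.22 times their error. Its liver replicates differ more than the group means do, and the intervals of its changes run from -0.40 to 2.27 against colon macrophages and from -1.23 to 1.44 against liver macrophages.

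A few further members passed the detection filter through liver or colon macrophages and did not pass the test. miR-770-3p, from within Meg3, was undetected on microglia replicate 1 and at 4.01 on replicate 2, beside 3.48 and 2.66 for colon macrophages and 3.51 and 4.79 for liver macrophages. Its change against colon macrophages, -0.25, was 0.94 without microglia replicate 1. miR-341-3p was not detected in microglia, at 4.74 on colon replicate 1 and not on replicate 2, and at 4.17 and 4.62 in liver macrophages. That makes microglia at least 5.60-fold lower than liver macrophages for miR-341-3p (adjusted p = 0.0664, limma). Microglia took the floor value on both arrays (SD 0), and the pooled spread came mostly from colon macrophages (SD 2.19). Leaving out either colon array removes that spread, so such a fit cannot add to the comparison of microglia with liver macrophages. miR-1188-5p was at 2.89 on microglia replicate 2 and 2.71 on colon replicate 1, undetected on their partners, and at 3.68 and 3.83 in liver macrophages. Against liver macrophages its change was -1.49 for microglia (adjusted p = 0.0735; -0.87 without microglia replicate 1) and -1.58 for colon macrophages (adjusted p = 0.174).

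The last 3 members were detected on 1 or 2 arrays and could not be tested. miR-432 stood at 4.23 on microglia replicate 2 and 1.91 on liver replicate 2. miR-433-5p was at 1.65 on liver replicate 1 and miR-654-3p at 1.94 on colon replicate 1, both next to the floor. Microglia replicate 2 was thus the microglia array on which miR-432, miR-770-3p, miR-1188-5p and miR-3070b-3p were detected, and replicate 1 detected none of these 4. Over all detected values of members, 61 in number, the signal was 3.11 to 15.5 times its error, with a median of 8.07.

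Colon and liver macrophages did not differ in any member past the threshold: limma called 0 of 10 tested. At the same adjusted p the background was 10.1% of 396 miRNAs, 5.3% higher and 4.8% lower in colon macrophages. In limma's test 3 members had an unadjusted p under 0.05 (miR-1188-5p, miR-345-5p and miR-370-3p), a count without a background share here. The members' median change was -0.69 and that of all tested miRNAs -0.04. miR-1188-5p and miR-341-3p entered through liver macrophages alone and no member through colon macrophages alone, so the filter favoured negative changes. Among miRNAs detected on all arrays the medians were -0.49 for members and 0.06 for all. Without liver replicate 1, miR-134-5p passed (log2 change -0.61, adjusted p = 0.0302).

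Under 5 other scalings the 8 differences that passed kept their direction and their call, although their sizes moved. For miR-3070a-3p the direction was fixed by its detection in microglia alone. A sixth, the 75th percentile over all miRNAs, falls on the placeholder for undetected miRNAs, 0.1, on microglia replicate 1, and it turned miR-370-3p and miR-494-3p against colon macrophages (0.65 and 0.54) and miR-494-3p and miR-134-5p against liver macrophages (1.05 and 2.78), none of them passing.

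**Figure D5:**
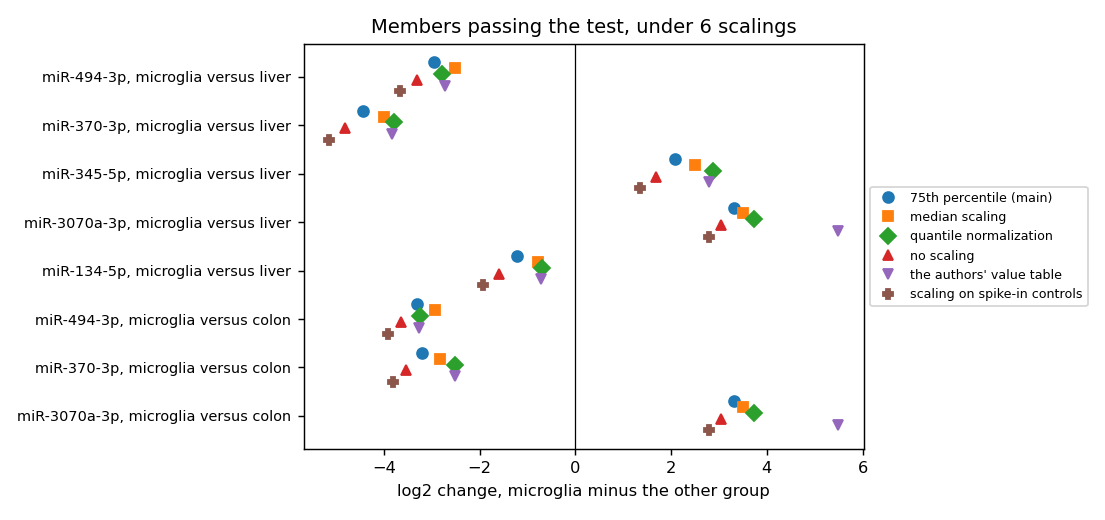
Log2 change, microglia minus the other group, for the 8 differences that passed the test, under the scaling used here and 5 others (symbols). Symbols of each row stay on 1 side of 0; miR-370-3p against liver macrophages runs from -5.15 to -3.79.

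Other miRNA genes of the interval were also mostly undetected. Between Dlk1 and Dio3 the array held 7 miRNAs of 4 genes that the name list leaves out, and 2 of the 7 were detected on at least 1 array: miR-882 on liver replicate 1, and miR-1247-3p on colon replicate 1 and both liver arrays. Both arms of miR-673 and of miR-3544 were not detected on any.

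Markers of other cell types moved with the groups. Of 7 smooth muscle and fibroblast miRNAs, microglia detected 2 and 0 (summed scaled signal 43.7 and 0), colon macrophages 7 and 6 (723 and 485) and liver macrophages 4 and 4 (221 and 147). miR-143-3p and miR-145a-5p were not detected in microglia or liver macrophages. The sums are lowest in microglia, as for miR-370-3p and miR-494-3p, and the liver sums lie below the colon sums. The mean of miR-494-3p was 11.15 in liver and 11.52 in colon macrophages, within its replicate spread, and that of miR-370-3p was 8.42 and 7.20. Of 10 neuronal miRNAs, microglia detected 5 and 6 (summed scaled signal 82.3 and 97.6), colon macrophages 4 and 4 (139 and 177) and liver macrophages 3 and 3 (175 and 273). The colon and liver sums lie mostly in miR-7a-5p and miR-132-3p. miR-7a-5p was at 4.23 and 4.50 in microglia, 5.34 and 5.57 in colon and 6.95 and 7.54 in liver macrophages. miR-132-3p was at 6.37 and 6.80 in colon and 5.29 and 5.88 in liver macrophages, and at 3.53 on microglia replicate 2 only. miR-122-5p, the hepatocyte miRNA, brought the liver sums of that cell type to 2140 and 3640, beside 277 and 158 in microglia and 0 on both colon arrays. For 2 arms of the endothelial miR-126 the liver sums were 4140 and 2630, beside 247 and 220 for colon macrophages and 35.6 and 0 for microglia, an order shared with miR-370-3p. The epithelial and erythrocyte lists had other orders. Epithelial sums were 645 and 55.2 in microglia, 3200 and 2230 in colon and 15.6 and 34.4 in liver macrophages. Erythrocyte sums were 715 and 122, 58.8 and 51.2, and 172 and 158 in the same order of groups. miR-124-3p, at 4.08 and 3.86, and miR-9-5p, at 3.40 and 3.59, were detected on both microglia arrays, and miR-129-5p, miR-218-5p and miR-137-3p on none of the 6. Outside microglia, miR-124-3p was detected on colon replicate 1 only (2.47) and miR-9-5p on no array. Of the blood cell miRNAs, miR-223-3p too was lowest on both microglia arrays, while miR-142-3p, miR-142-5p and miR-146a-5p were not. The part of other cells in the members' levels was not tested.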

How the data were processed

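Intensities were deposited by the authors as 1 total gene signal per miRNA and array, with its error and a detection flag, per the file headers. The submitters' processing notes name Agilent Feature Extraction 9.1, and per the labels 100 ng of total RNA was labelled with Cy3. The authors also deposited a log2 value table of 595 miRNAs, 62 of them members, whose normalization and centring are not given in the sources used here (all column medians 3.72; r = 0.992 with the log2 signals across 248 miRNAs and 6 arrays). It served as an alternative.

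Control rows (21) were left out. After scaling and flooring, limma 3.58.1 in R 4.3.3 fitted 1 model of 3 group means to 6 arrays (eBayes; 2-sided; 3 degrees of freedom from the residuals and 2.2 from the prior). Benjamini-Hochberg adjustment ran over all miRNAs that either group of a comparison detected on both its arrays. The fit was also run on simulated data with normal noise on every array. No group was held at the floor there, so that run does not cover members with a floored group. Every member detected on at least 1 array is named with its values; undetected members are named as partner arms, as neighbours, or, chosen after their values were seen, as well known miRNAs of the cluster. Members and lists were chosen with earlier results of these data known. Spot, background, slide and scan data were not used here, so neither normexp nor a batch block was run. Alternatives were other scalings, floors, filters and fits, and each array left out.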

Additional observations from a re-analysis of the deposited data

How the results depend on the processing

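Each of 30 changes of tested members and the 3 counts of passing members was recomputed under 19 alternatives, 1 of them, scaling on spike-in controls, chosen after seeing the data. Of 558 recomputed changes 479 kept their direction and side of the threshold, 29 lost the call, 18 gained one and 32 turned. The causes were not tested. The count of passing members against colon macrophages (3) was 1 to 4 with each array left out, that against liver macrophages (5) was 3 to 6, and that between colon and liver macrophages (0) was 0 to 1. Tested without a detection filter, the first 2 counts were 0 and 1 in limma's test (4 and 5 at an unadjusted p under 0.05), with all 111 members and all 1247 miRNAs adjusted for. With the 75th percentile over all miRNAs both were 0 (3 and 2 at an unadjusted p under 0.05). The counts at an unadjusted p have no share over all miRNAs beside them and are given as a description. The third count was 1, miR-345-5p, with median scaling, quantile normalization and the authors' table. A lone array in a group was taken to vary like the others.

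Changes that turned without passing were these. Against colon macrophages: miR-3072-5p with no scaling (-0.11) and spike-in controls (-0.37), and miR-770-3p with quantile normalization (0.34) and a floor 4 times higher (0.18). Against liver macrophages: miR-3072-5p with median scaling (0.12), and miR-487b-3p with no scaling (-0.27), a floor 4 times higher (-0.19) and spike-in controls (-0.62). Between colon and liver macrophages: miR-3070b-3p with median scaling (0.05) and in the authors' table (0.03). The 75th percentile over all miRNAs turned, against colon macrophages, miR-134-5p (3.06), miR-370-3p (0.65), miR-494-3p (0.54), miR-3070b-3p (0.22) and miR-770-3p (1.30). Against liver macrophages it turned miR-1188-5p (0.20), miR-134-5p (2.78), miR-3070b-3p (0.36), miR-3072-5p (3.68), miR-494-3p (1.05) and miR-770-3p (0.37), and between colon and liver macrophages miR-3070b-3p (0.15).

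With an array left out, miR-3070b-3p ran from -3.09 to 0.18 against colon macrophages, from -3.02 to 0.17 against liver macrophages and from -0.53 to 0.56 between these. miR-770-3p against colon macrophages ran from -1.67 to 0.94 and miR-487b-3p against liver macrophages from -0.55 to 0.79. Between colon and liver macrophages, miR-341-3p ran from -2.61 to 0.39 and miR-494-3p from -0.21 to 0.97.

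With the replicate block 3, 5 and 0 members passed, as without it. Nothing in the labels pairs the arrays, and same-numbered arrays deviated from their group means with correlations of 0.21 (microglia and colon), 0.07 (microglia and liver) and -0.09 (colon and liver). Over all miRNAs, 175, 202 and 40 passed. With an array left out these counts were 53 to 203, 117 to 221 and 19 to 109, and over 12 other settings, the 75th percentile over all miRNAs aside, 27 to 215, 52 to 232 and 7 to 51.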
